A study of Mus musculus with 8 samples.

Results

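Genes that encode chromatin regulators and transcription regulators form one of the largest classes of genes in which rare damaging variants are linked to autism. A list of 40 such genes, matched by symbol with no measured value in the rule but drawn up with earlier results of these data known, was read in the prefrontal cortex (PFC) of mice that overexpressed Rnf146, and all 40 were among the 15039 genes of the deposited table. Each group had 4 libraries. Wild-type male C57BL/6NCrljOri mice aged 6 weeks received AAV2/1 into the PFC of both hemispheres, carrying either Rnf146 together with eGFP or eGFP alone behind the neuronal human synapsin (hsyn) promoter, and PFC RNA was taken 4 weeks later. Both groups had therefore undergone the injection and expressed eGFP, and they differed in the Rnf146 sequence. The authors report that sequencing used mice with verified Rnf146 overexpression and social deficits. *Rnf146* encodes a ubiquitin ligase that recognizes poly-ADP-ribosylated proteins and acts on Axin in the Wnt/β-catenin pathway. The sample labels do not say whether a library held RNA of 1 mouse or of a pool, so the tests measure the spread between these libraries. In bulk tissue, a smaller number of cells of a type and less RNA per cell cannot be told apart.

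Most members act on nucleosomes. Remodelers of the CHD and BAF (SWI/SNF) families use ATP to move or evict nucleosomes, methyltransferases and demethylases write and remove methyl groups on histone lysines, and reader proteins bind these marks and recruit co-activators or co-repressors. In the cortex, many of these genes are expressed most strongly during development and remain on in mature neurons, where they set which neuronal programs stay accessible. Loss of 1 copy of several of them causes autism with intellectual disability in people, so the dose of these genes matters. The comparison asked whether the RNA of these genes changed when Rnf146 was raised in the adult PFC.

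The deposited values are on a log2 scale and were centred by the authors within each pair of libraries that share a replicate number, so that each gene holds 4 pair differences, Rnf146 value minus eGFP value. Unless stated otherwise, a difference below is the mean of the 4 pair differences in these units, with their SD. The lowest single value was 7.86, and the lowest 25% of all genes had mean values below 8.99. Near this floor of the scale differences may be compressed, which was not tested. All 40 members had means above 8.99, from 9.79 for *Chd7* to 14.3 for *Chd3*. *Rnf146* itself had values of 10.3 to 10.5 in the 4 eGFP libraries and 13.0 to 13.2 in the 4 Rnf146 libraries, so that it was higher by 2.64 ± 0.13 (SD, n = 4 pairs; limma adjusted p = 3.2e-07). As a check of the labelled tissue, 10 of 10 markers of excitatory cortical neurons were in the table, at a list mean of 11.1 to 11.2 in the eGFP and 10.99 to 11.1 in the Rnf146 libraries. Markers of striatal projection neurons, 12 of 12, were present too, at 10.1 to 10.8 in the eGFP and 10.7 to 11.4 in the Rnf146 libraries.

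No member of the list was called. With the replicate number as a block, limma called 188 of the 15039 genes, or 1.25%, at an adjusted p of 0.1 or less, and 0 of the 40 members. The lowest adjusted p of a member was 0.202, for *Zmynd11*. An unadjusted p below 0.05 was found for 7 of the 40 members (17.5%) and for 12.4% of all genes. The median difference of the 40 members was 0.0017, against 0.00086 over all genes, with 21 members above 0 and 19 below 0. The differences ran from -0.23 for *Adnp* to 0.18 for *Foxp1*. The median SD over the 4 pairs was 0.090 for the members and 0.098 for all genes. In 9 members (22.5%) the mean difference was at least as large as its SD, and this was so for 22.9% of all genes.

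The intervals come from the main fit, which has no term for tissue composition, so they bound the differences under that model only. The 95% confidence interval from limma lay wholly within -0.2 and 0.2 for 25 members and within -0.3 and 0.3 for 36 members. The other 4 were *Adnp*, *Zmynd11*, *Kdm6b* and *Foxp1*. When a score of striatal and septal markers was added to the fit, some estimates lay outside these intervals. Among them, *Ehmt1* came to 0.23, against an upper bound of 0.16, and *Arid1b* to -0.24, against a lower bound of -0.17. Among all 188 called genes the smallest absolute difference was 0.20 and the median was 0.34. Differences of this smallest size or more were seen in 2 members, *Adnp* and *Zmynd11*, and the other 38 were smaller. The shares of all genes with such differences or such intervals were not counted. The median absolute difference was 0.058 for the members and 0.049 for all genes.

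**Figure D1:**
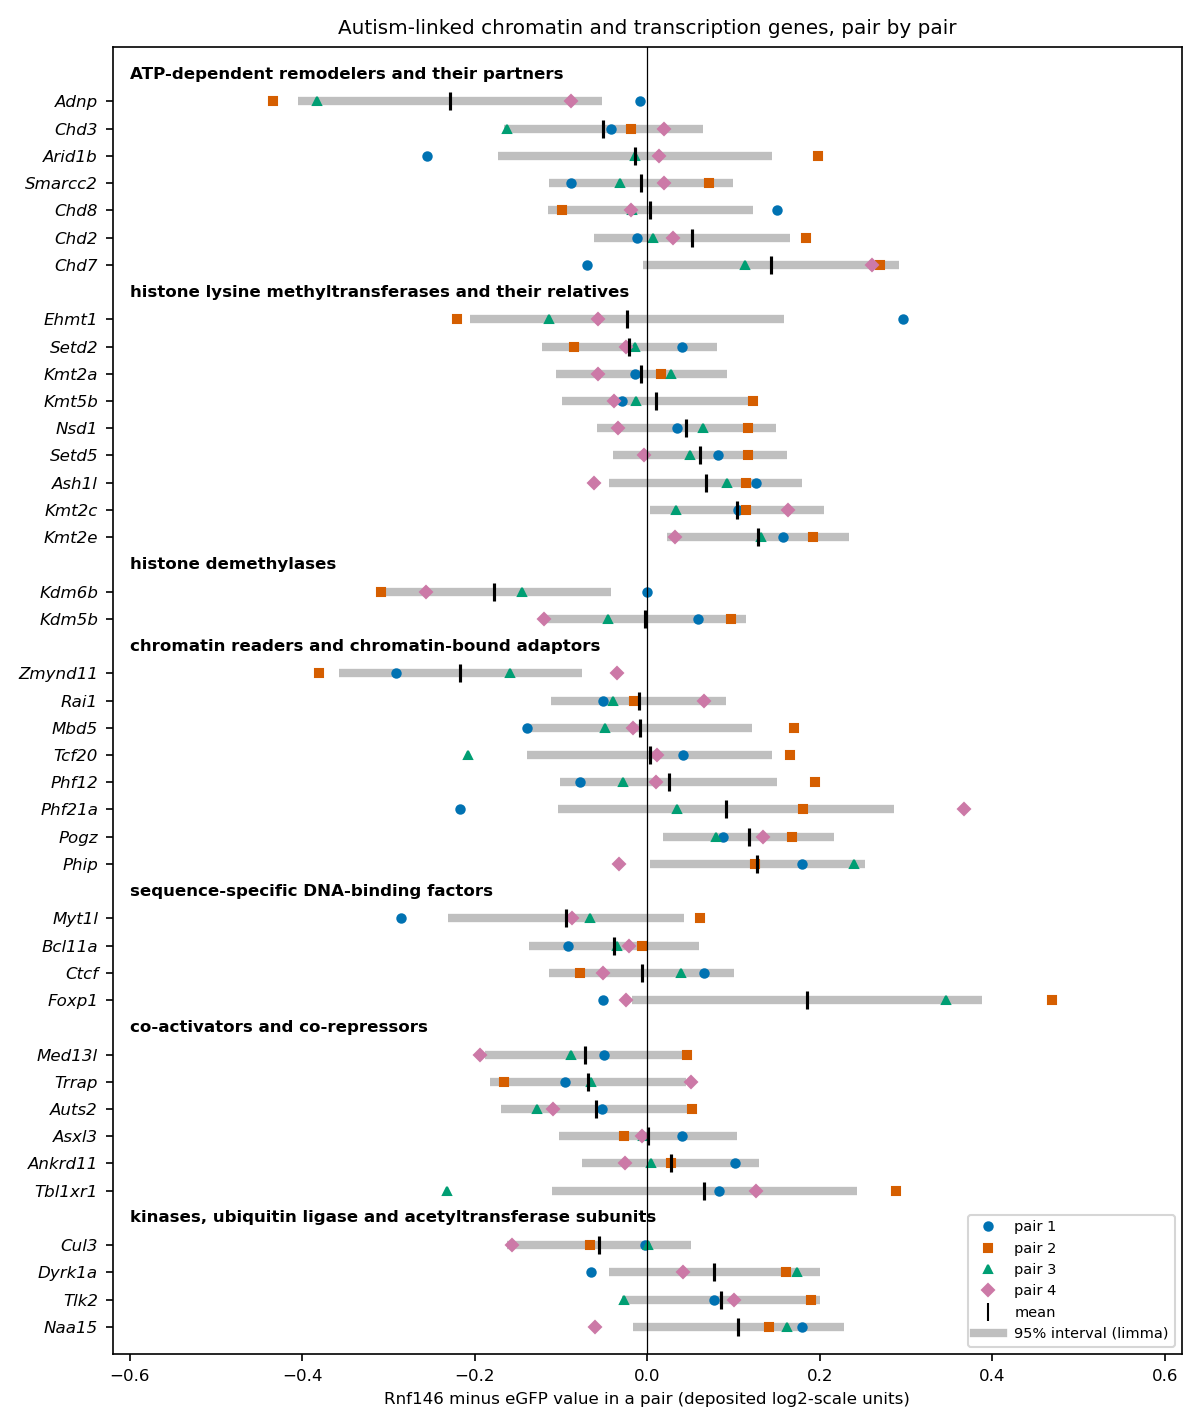
Difference between the Rnf146 and eGFP library of each pair (horizontal axis, deposited log2-scale units) for the 40 members, grouped by role; coloured symbols are the 4 pairs, black ticks their mean and grey bars the 95% confidence interval from limma. The intervals of 33 members include 0, and the means run from -0.23 for Adnp to 0.18 for Foxp1.

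All 4 pair differences had the same direction in 7 members, or 17.5%, against 20.6% of all genes. In pair-centred values this is the same as no overlap between the groups. Values of the Rnf146 group were higher in all 4 pairs for 3 members, *Kmt2c*, *Kmt2e* and *Pogz* (10.4% of all genes), and lower in all 4 pairs for 4 members, *Zmynd11*, *Adnp*, *Kdm6b* and *Bcl11a* (10.2% of all genes). The share of members with a common direction was thus not above that of the table as a whole.

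The 250 bases before and 50 bases after the transcription start of 3 of these genes are shown because they had the largest negative difference (*Adnp*), the lowest p (*Zmynd11*) and the smallest spread among the 3 members higher in every pair (*Pogz*). This choice was made with the values in view. The sequences are those of RefSeq, read 5′ to 3′ along the gene, with each CG dinucleotide in capitals.

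Adnp (GRCm38.p6, chr2:168207063-168207362, minus strand): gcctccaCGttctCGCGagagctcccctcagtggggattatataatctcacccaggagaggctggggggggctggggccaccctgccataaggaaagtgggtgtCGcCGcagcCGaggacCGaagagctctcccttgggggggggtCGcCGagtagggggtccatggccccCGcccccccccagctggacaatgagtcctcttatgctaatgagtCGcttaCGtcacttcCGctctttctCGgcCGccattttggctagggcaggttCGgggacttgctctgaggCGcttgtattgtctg

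Zmynd11 (GRCm38.p6, chr13:9764421-9764720, minus strand, 1 of 4 listed starts, the one with the highest CG ratio): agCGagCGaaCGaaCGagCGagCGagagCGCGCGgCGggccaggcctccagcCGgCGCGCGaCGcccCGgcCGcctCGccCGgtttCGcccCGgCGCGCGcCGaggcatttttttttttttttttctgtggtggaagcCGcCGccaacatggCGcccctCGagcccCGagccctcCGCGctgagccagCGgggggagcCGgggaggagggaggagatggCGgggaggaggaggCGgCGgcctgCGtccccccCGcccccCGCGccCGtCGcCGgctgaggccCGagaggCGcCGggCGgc

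Pogz (GRCm38.p6, chr3:94837187-94837486, plus strand): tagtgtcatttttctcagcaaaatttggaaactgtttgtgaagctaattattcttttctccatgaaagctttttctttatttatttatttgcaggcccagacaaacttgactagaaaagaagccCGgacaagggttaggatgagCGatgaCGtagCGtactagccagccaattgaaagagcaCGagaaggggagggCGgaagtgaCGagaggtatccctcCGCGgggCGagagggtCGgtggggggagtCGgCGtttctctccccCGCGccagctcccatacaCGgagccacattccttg

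The *Zmynd11* window held 48 CG dinucleotides at 76.7% GC, the *Adnp* window 17 at 62.7% and the *Pogz* window 16 at a lower GC content than either. RefSeq windows were found for 31 of the 40 members. A window with at least 55% GC and a ratio of observed to expected CG of at least 0.65 was present in 24 of these 31 genes (77.4%), and in 61.2% of the 11133 genes of the table with a window. Counted per window, since some genes have several starts, the shares were 58.7% and 53.5%. The core motif of the TCF/LEF factors, through which β-catenin acts, was searched on both strands as CTTTG followed by any 2 of the bases A and T. It was found in 2 of the 46 member windows (4.35%), both of *Foxp1*, and in 11.5% of the 14368 windows of all genes, and in none of the 3 windows shown. The members also shared a large size that the list did not use. All 40 had a longest transcript above the median of all genes, with a median of 8134 bases against 4362, and 38 of 40 had a longer gene body than the median gene.

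The ATP-dependent remodelers and their partners, 7 members, had a median difference of -0.0073, with 3 above 0 and 4 below 0. *Adnp*, a zinc-finger and homeobox protein that works with the remodeler CHD4 and with heterochromatin protein HP1, lies on chromosome 2 (GRCm39, 168021912 to 168049222, minus strand). Its values were 10.03, 10.24, 10.22 and 10.07 in eGFP libraries 1 to 4 and 10.02, 9.81, 9.83 and 9.98 in the Rnf146 libraries. The pair differences were -0.0087, -0.43, -0.38 and -0.089, so that pairs 2 and 3 carried most of the difference and pair 1 almost none. The mean was -0.23 ± 0.21 (SD, n = 4 pairs). Its limma adjusted p came to 0.276 with the block and to 0.048 without it. The fit without the block takes the paired values as independent and called 21.5% of all genes.

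*Chd7*, a remodeler that acts at enhancers, had pair differences of -0.069, 0.27, 0.11 and 0.26. Its mean was 0.14 ± 0.16 (SD, n = 4 pairs; limma adjusted p = 0.420). *Chd8*, whose protein binds β-catenin and holds back its target genes, is among the genes most often hit in autism. Its values lay between 11.86 and 11.99 in the eGFP libraries and between 11.89 and 12.01 in the Rnf146 libraries, and the groups overlapped. The pair differences were 0.15 in pair 1 and -0.099, -0.018 and -0.018 in the others. The mean of 0.0036 had an interval from -0.11 to 0.12. *Arid1b*, a subunit of the BAF complex, differed by -0.26 in pair 1 and by 0.20 in pair 2, with -0.014 and 0.014 in the other pairs. *Chd2*, *Chd3* and *Smarcc2*, the last also a BAF subunit, had mean differences from -0.051 to 0.052.

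The histone lysine methyltransferases and their relatives, 9 members, had a median difference of 0.045, with 6 above 0 and 3 below 0. *Kmt2e* (chromosome 5, GRCm39, 23639418 to 23709233, plus strand), a KMT2 relative that binds the methyl mark of active promoters and has little activity of its own, was between 11.89 and 11.97 in the eGFP libraries and between 12.001 and 12.08 in the Rnf146 libraries. Its pair differences were 0.16, 0.19, 0.13 and 0.032, averaging 0.13 ± 0.07 (SD, n = 4 pairs). The groups did not overlap, with a limma adjusted p of 0.307. *Kmt2c*, which methylates histones at enhancers, had pair differences of 0.11, 0.11, 0.034 and 0.16. Its mean was 0.10 ± 0.05 (SD, n = 4 pairs; limma adjusted p = 0.388).

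*Kmt2a*, a methyltransferase of active promoters, had a mean difference of -0.0068 with an interval from -0.11 to 0.093, so that the 3 KMT2 members of the list spanned 0. The enzymes that methylate the lysine of histone H3 that marks transcribed gene bodies, *Setd2*, *Nsd1* and *Ash1l*, had mean differences of -0.021, 0.045 and 0.068. *Ehmt1*, which writes a repressive mark, held the lowest mean of the group, -0.024 ± 0.22 (SD, n = 4 pairs), and its pairs disagreed, with 0.30 in pair 1 and -0.22, -0.11 and -0.057 in the others. *Setd5* and *Kmt5b* had mean differences of 0.061 and 0.010.

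Both histone demethylases had a mean below 0. *Kdm6b* (chromosome 11, GRCm39, 69289334 to 69304501, minus strand) removes the mark that Polycomb places on silenced genes and is induced by neuronal activity. Its values were 10.27, 10.42, 10.34 and 10.39 in eGFP libraries 1 to 4 and 10.27, 10.11, 10.19 and 10.14 in the Rnf146 libraries. The difference was close to 0 in pair 1 (-0.00062) and was -0.31, -0.15 and -0.26 in the other 3 pairs. The mean was -0.18 ± 0.14 (SD, n = 4 pairs; limma adjusted p = 0.274). *Kdm5b*, which removes the mark of active promoters, had a mean of -0.0023 ± 0.099 (SD, n = 4 pairs).

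Chromatin readers and chromatin-bound adaptors, 8 members, had a median difference of 0.014. *Zmynd11* (chromosome 13, GRCm39, 9734869 to 9815500, minus strand) binds the gene-body mark that SETD2 writes on the variant histone H3.3 and restrains elongation by RNA polymerase II. Its values were 12.71, 12.76, 12.65 and 12.58 in eGFP libraries 1 to 4 and 12.42, 12.38, 12.49 and 12.55 in the Rnf146 libraries. The pair differences were -0.29, -0.38, -0.16 and -0.035, averaging -0.22 ± 0.15 (SD, n = 4 pairs), and the interval ran from -0.36 to -0.076. The groups did not overlap, with a limma adjusted p of 0.202 under the block and 0.022 without it, where 21.5% of all genes were called. *Pogz* (chromosome 3, GRCm39, 94744692 to 94789637, plus strand), which binds HP1 and has been found with ADNP, had pair differences of 0.087, 0.17, 0.080 and 0.13. Its mean was 0.12 ± 0.04 (SD, n = 4 pairs; limma adjusted p = 0.321), opposite in sign to that of *Adnp*.

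*Phip*, a bromodomain protein of a cullin ubiquitin ligase, had pair differences of 0.18, 0.12, 0.24 and -0.033, averaging 0.13 ± 0.12 (SD, n = 4 pairs; limma adjusted p = 0.390). *Phf21a*, a reader of unmethylated histone H3 in the LSD1 co-repressor complex, had the widest spread of the readers, from -0.22 in pair 1 to 0.37 in pair 4. *Phf12*, *Mbd5*, *Rai1* and *Tcf20* had mean differences from -0.010 to 0.025. In *Mbd5* and *Tcf20* the highest pair was pair 2, at 0.17 in each.

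**Figure D2:**
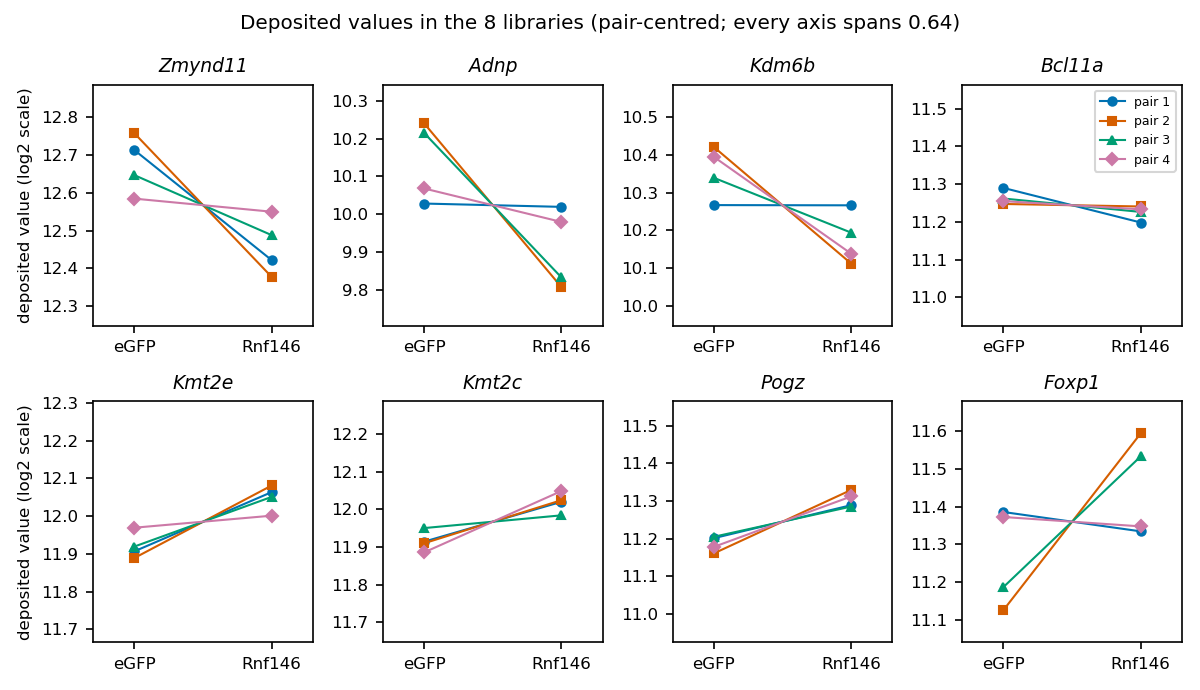
Deposited values (vertical axis, log2 scale, each panel spanning the same range) of 8 members in the eGFP and Rnf146 library of each pair, joined by a line; the ends of each line lie equally far from the mean of the gene, since values were centred within pairs. Shown are Foxp1 and the 7 members chosen because all 4 pairs had the same direction (17.5% of the 40 members, against 20.6% of all genes). In these 7 the groups therefore do not overlap, while Foxp1 was higher in the Rnf146 library in pairs 2 and 3 and slightly lower in pairs 1 and 4.

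Of the 4 sequence-specific DNA-binding factors, *Foxp1* had the highest mean difference of all members and also the widest spread. This forkhead factor is expressed in upper-layer and deep-layer projection neurons of the cortex and strongly in projection neurons of the striatum. Its values were 11.39, 11.13, 11.19 and 11.37 in eGFP libraries 1 to 4 and 11.33, 11.59, 11.53 and 11.35 in the Rnf146 libraries. The pair differences were -0.051, 0.47, 0.35 and -0.025, averaging 0.18 ± 0.26 (SD, n = 4 pairs; limma adjusted p = 0.445). The markers of striatal projection neurons, 12 of 12 in the table, differed in the same pairs by -0.11, 1.27, 0.66 and 0.28 on average. With a score of the striatal and septal markers as a covariate beside the block, the fitted difference of *Foxp1* was -0.12 (limma adjusted p = 0.930). That fit called only 3 of the 15039 genes. The part of tissue composition in the values of *Foxp1* was not tested. *Bcl11a*, a zinc-finger repressor of cortical projection neurons, was lower in all 4 pairs but by little, at -0.039 ± 0.037 (SD, n = 4 pairs). *Myt1l*, which holds non-neuronal genes off in neurons, had the lowest mean of these factors, -0.095 ± 0.14 (SD, n = 4 pairs; limma adjusted p = 0.566), of which -0.29 came in pair 1. *Ctcf*, the architectural protein that bounds chromatin loops, had a mean of -0.0063.

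The 6 co-activators and co-repressors lay between -0.072 and 0.066. *Med13l*, of the Mediator kinase module, was the lowest and differed by 0.046 in pair 2 and by -0.050, -0.089 and -0.19 in the others. *Tbl1xr1*, a subunit of the NCoR co-repressor that also binds β-catenin, was the highest, but ranged from -0.23 in pair 3 to 0.29 in pair 2. *Asxl3* had the smallest SD of all members, 0.028, around a mean of 0.00077. *Auts2*, *Trrap* and *Ankrd11* had mean differences of -0.060, -0.069 and 0.027.

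Among the kinases, the ubiquitin ligase and the acetyltransferase subunit, *Naa15*, which anchors the NatA complex to ribosomes, had the highest mean. Its pair differences were 0.18, 0.14, 0.16 and -0.060, averaging 0.11 ± 0.11 (SD, n = 4 pairs; limma adjusted p = 0.464). *Cul3*, the scaffold of a large family of ubiquitin ligases, had the lowest mean, -0.056 ± 0.074 (SD, n = 4 pairs; limma adjusted p = 0.687). The kinases *Dyrk1a* and *Tlk2* had mean differences of 0.078 and 0.085.

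Without the replicate block, the fit takes the centred values for 8 independent libraries and calls many more genes. In that fit 9 of the 40 members (22.5%) were called, against 21.5% of all genes. Of these, 6 had a positive difference, *Kmt2c*, *Kmt2e*, *Pogz*, *Phip*, *Chd7* and *Naa15* (11.0% of all genes were called higher), and 3 a negative one, *Zmynd11*, *Adnp* and *Kdm6b* (10.4% of all genes were called lower). The members were therefore called at nearly the share of the whole table in this fit too.

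**Figure D3:**
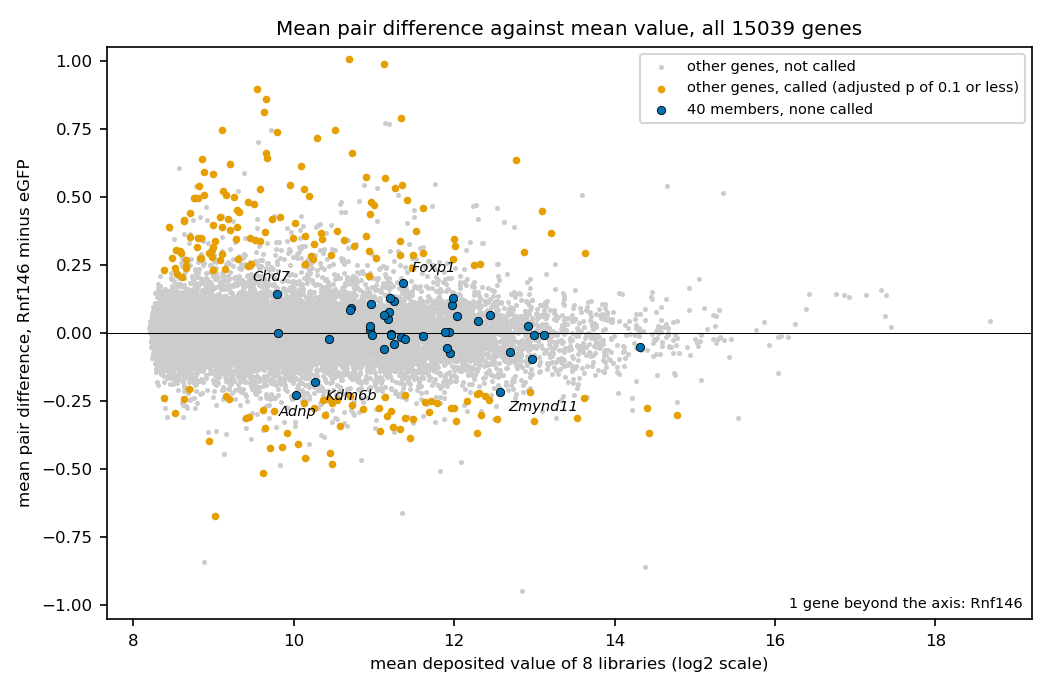
Mean pair difference, Rnf146 minus eGFP (vertical axis, deposited log2-scale units), against the mean deposited value of the 8 libraries (horizontal axis, log2 scale) for all genes; blue points are the 40 members, orange points the called genes. No member was called, and only Adnp and Zmynd11 of the members reached 0.20, the smallest absolute difference among called genes. The share of all genes that reached 0.20 was not counted.

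The other subunits of the complexes in which the members act were read the same way. A list of 86 other subunits and relatives, all in the table, covered BAF, the CHD family with NuRD, KMT2 (COMPASS), the Mediator kinase module, NCoR, the TIP60 and SAGA acetyltransferases, and cohesin. With the block, limma called 0 of the 86, against 1.25% of all genes, and 9 had an unadjusted p below 0.05, against 12.4%. Without the block 16 were called, against 21.5% of all genes, 10 of them higher (11.0%) and 6 lower (10.4%). The median difference of the 86 was 0.017, with 49 above 0 and 37 below 0. Over all genes, 7598 of 15039 were above 0. By complex, the difference was above 0 in 13 of 24 BAF genes, 9 of 14 of the CHD family and NuRD, 3 of 12 of KMT2, 5 of 6 of the Mediator kinase module, 2 of 5 of NCoR, 9 of 15 of TIP60 and SAGA and 8 of 10 of cohesin.

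The lowest and the highest of them both came from BAF. *Dpf1*, a subunit of the neuronal form of BAF, had pair differences of -0.41, -0.22, -0.13 and -0.19, averaging -0.24 ± 0.12 (SD, n = 4 pairs; limma adjusted p = 0.134). *Brd7*, a bromodomain subunit of the PBAF form, had 0.093, 0.27, 0.16 and 0.29, averaging 0.20 ± 0.09 (SD, n = 4 pairs; limma adjusted p = 0.156). In the CHD family, the lowest was *Chd5* at -0.12 and the highest *Chd6* at 0.15. Among the KMT2 complexes, *Setd1a*, a methyltransferase of active promoters that is linked to schizophrenia, was lowest at -0.16 ± 0.07 (SD, n = 4 pairs; limma adjusted p = 0.219), and *Ash2l*, a shared core subunit, was highest at 0.10. The lowest and highest were *Med12l* and *Cdk19* in the Mediator kinase module (-0.0038 and 0.14), *Hdac3* and *Tbl1x* in NCoR (-0.053 and 0.11), *Epc2* and *Kat2b* in the acetyltransferase complexes (-0.11 and 0.15), and *Stag1* and *Stag2* in cohesin (-0.056 and 0.12).

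The 4 pairs did not weigh on the members equally. The median difference over the 40 members was -0.0057, 0.11, -0.014 and -0.020 in pairs 1 to 4, and pair 2 had 27 members above 0, the remaining pairs 16 to 18. Over all genes the median lay between -0.0020 and 0.0037 in the 4 pairs. Pair 2 was also the pair with the largest difference in striatal markers. Of the other marker lists, the 6 septal and basal forebrain genes read here averaged 0.56 and all were called, with list means of 9.30 to 9.49 in the eGFP and 9.85 to 10.04 in the Rnf146 libraries. Oligodendrocyte genes (9 of 9) differed by -0.14, 0.47, 0.91 and 0.55 in the 4 pairs. The lists of excitatory cortical neurons (10 of 10) and microglia (8 of 8) averaged -0.14 and -0.16, interneurons (8 of 8) 0.14 with a median of -0.042, ependymal cells (3 of 6) 0.19, and astrocytes (7 of 7) and endothelial cells (6 of 6) -0.039 and 0.015. As signs of RNA quality, the 9 mitochondrial transcripts averaged 0.33, -0.0086, 0.20 and -0.032 in the 4 pairs and the 5 nuclear long non-coding RNAs -0.23, -0.083, 0.16 and 0.13. The part of tissue composition and RNA quality in the members' values was not tested. With the striatal and septal score as a covariate, *Adnp* came to 0.015, *Chd7* to -0.0065, *Kdm6b* to -0.035 and *Zmynd11* to -0.13. Other members moved away from 0, among them *Myt1l* from -0.095 to -0.27, *Arid1b* from -0.014 to -0.24 and *Ehmt1* from -0.024 to 0.23. In this fit, which has fewer residual degrees of freedom than the main fit, 14 of the 40 members changed sign. The share of all genes that changed sign was not counted. The fit called 0 members and only 3 of all 15039 genes.

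**Figure D4:**
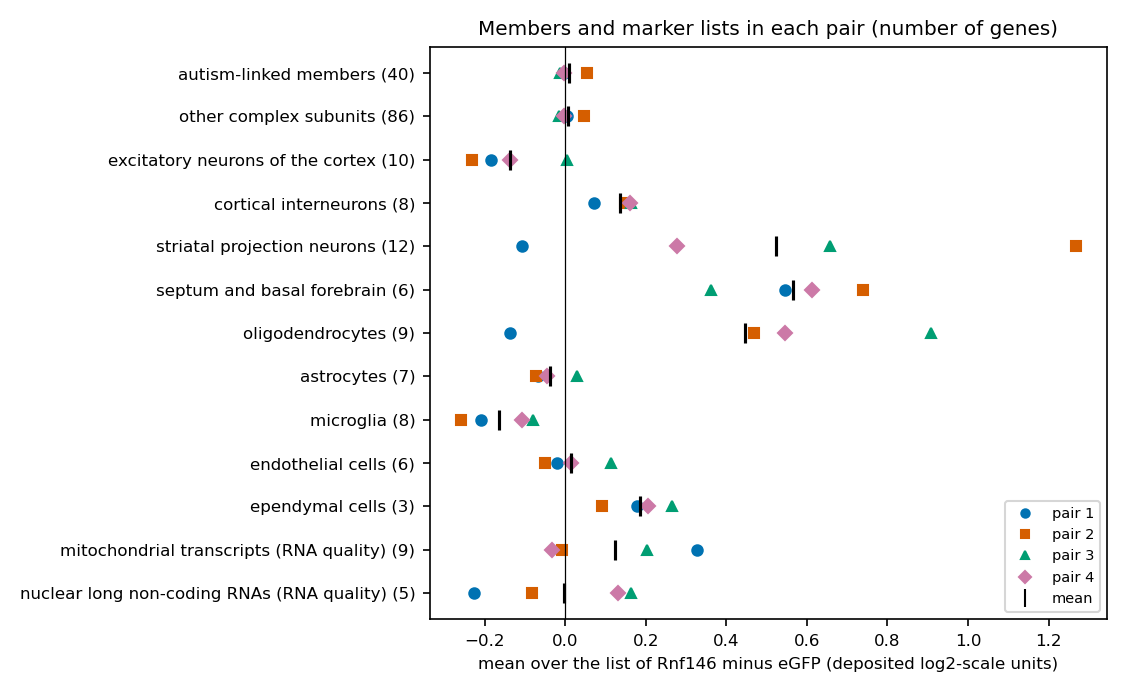
Mean difference between the Rnf146 and eGFP library of each pair (horizontal axis, deposited log2-scale units) over the 40 members, the 86 other subunits and each marker list; symbols are pairs, ticks their mean, and the number of genes stands in brackets. The members lie between -0.012 and 0.054 in every pair, while the striatal list runs from -0.11 in pair 1 to 1.27 in pair 2.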

How the data were processed

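RNA of 8 PFC libraries, 4 of Rnf146- and 4 of eGFP-overexpressing mice, was sequenced from stranded mRNA libraries. Per the methods, the authors used Cutadapt for trimming and Salmon 1.9.0 for transcript quantification, against GENCODE vM30 (GRCm39). The deposited values are per gene symbol and on a log2 scale, from 7.86 to 18.8; DESeq2 is named in the submitters' notes, but the transformation and the centring are not given in the sources used here. In every gene the sum of the eGFP and Rnf146 values was equal between the 4 replicate numbers (largest spread 1.4e-13), which fixes the correlation of same-numbered deviations. The table holds neither reads nor counts, so the depth is unknown and no count model was used.

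Models used limma 3.58.1 under R 4.3.3 (lmFit; eBayes, trended variance), with the replicate number as a block (3 residual degrees of freedom), Benjamini-Hochberg adjustment over 15039 genes and a threshold of 0.1. The fit was tested on simulated data with shifts larger than any member difference, so that test does not cover differences of the members' size. Members, roles, companions and marker lists were chosen with earlier results of these data known. Named in full were the 10 members with the lowest p, the highest and lowest of each role, and the highest and lowest companion of each complex. Gene coordinates, lengths and GC content came from GENCODE vM39 (GRCm39; 14590 genes, 97.0%), promoter windows from RefSeq (GRCm38.p6), without conversion between the builds. Alternatives were no block, median centring, quantile normalization, leaving out the 25% of genes with the lowest mean value, untrended and robust variances, a covariate of striatal and septal markers, correction for GC content and length, an adjusted p of 0.05, and leaving out each pair.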

Additional observations from a re-analysis of the deposited data

Results flagged for a closer look

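In 55 genes (the 40 members, the 14 companions named above and *Rnf146*) the 4 pair differences were searched for a pair far from the other 3 by Dixon's ratio, for which chance alone passes about 1 in 20 groups. It was passed by 3 genes. *Kmt5b*, which methylates histone H4, differed by 0.12 in pair 2 and by -0.038 to -0.014 in the other pairs. *Naa15* differed by -0.060 in pair 4 and by 0.14 to 0.18 in the others. *Stag1*, a cohesin subunit, differed by 0.21 in pair 1 and by -0.15 to -0.14 in the others. The cause was not tested.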

How the results depend on the processing

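The count of 0 members called held under 11 of 12 refits, with the lowest adjusted p of a member between 0.102 (*Kdm6b* without pair 1) and 0.772 (striatal and septal covariate); it was 9 without the replicate block. Over all genes, 188 were called, against 3226 without the block, 3 with the covariate, 80 at an adjusted p of 0.05, and 14 to 421 with 1 pair left out (421 without pair 1, 42 without pair 2, 169 without pair 3 and 14 without pair 4). The share of called genes that was higher was 65.4%, and ran over the refits from 51.3% (no block) to all 14 called genes (without pair 4), with 92.9% without pair 2 and 73.4% with the correction for GC content and length. Of the 86 companions, 16 were called without the block and 0 to 1 with a pair left out, the 1 being *Brd7* without pair 1. The median member difference stayed between -0.034 (covariate) and 0.012 (without pair 1). Of the 40 members, 18 kept the sign of their mean in all 12 refits, 9 above and 9 below 0. Sign changes were not counted over all genes. With the covariate 14 members changed sign, 3 of them among the 10 of lowest p: *Adnp* to 0.015, *Chd7* to -0.0065 and *Foxp1* to -0.12. The cause was not tested. Median centring, quantile normalization, the filter on low values and both other variance settings changed the sign of 0 members, and the correction for GC content and length that of 5, none among those 10. Only 4 pair differences stand behind each value and the depth is unknown. The scale may compress changes of weakly expressed genes, which was not tested.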
